A study of Capra hircus with 2 samples.

Results

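The miR-23, miR-27 and miR-24 miRNAs were examined in the mammary gland of dairy goats, in a dry and in a lactating stage. They were the entries of the study's list of conserved miRNAs named miR-23a, miR-23b, miR-27a, miR-27b or miR-24, with either arm, and they made up 8 of the 346 listed conserved miRNAs. The entries were miR-23a, miR-23b-3p, miR-23b-5p, miR-24, miR-24-3p, miR-27a-3p, miR-27a-5p and miR-27b. Whole mammary gland of adult Xinong Saanen dairy goats was used, without treatment or genetic change, and RNA of 3 goats was pooled for each stage. A single small RNA library was sequenced per stage, so the dry period library and the peak lactation library have no replicate, and each difference below has no replicate check. The sample labels place the dry period at 75 and peak lactation at 320 days after lambing, the study's text gives these days the other way round, and the stages here follow the sample titles. The libraries so titled hold 14851375 and 15712891 clean reads. These equal the counts that the study gives for its dry period and peak lactation libraries.

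These miRNAs come from a pair of gene clusters that arose by duplication, one carrying miR-23a, miR-27a and a copy of miR-24, the other miR-23b, miR-27b and another copy of miR-24. The RefSeq gene table for the goat assembly ARS1.2 holds hairpin genes for 5 of them, MIR23A directly beside MIR27A, and MIR23B, MIR27B and MIR24 in an unbroken row. Each hairpin is cut into a 5p and a 3p strand, 1 of which is usually kept in the Argonaute complex, where bases 2 to 8, the seed, pair with target mRNAs. Since the a and b copies carry the same seed, they can address the same targets. miR-27 is known to restrain lipid storage and adipocyte genes such as PPARG, miR-23 is known for effects on glutaminase and on endothelial cells, and miR-24 for effects on cell cycle genes.

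The listed sequences are shown because they decide which reads can be given to which copy, with the seed in capitals.
miR-23a: aUCACAUUgccagggauuucca
miR-23b-3p: aUCACAUUgccagggauuacca
miR-27a-3p: uUCACAGUggcuaaguuc
miR-27b: uUCACAGUggcuaaguuc
miR-24-3p: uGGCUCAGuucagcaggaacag
miR-23b-5p: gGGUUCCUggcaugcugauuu
miR-27a-5p: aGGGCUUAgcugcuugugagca
miR-24: gUGCCUACugagcugauauca
The entry named miR-24 is the 5p strand. No listed miRNA other than the partner copy carried any of these seeds. miR-27a-3p and miR-27b were listed with the same 18 bases, so the same reads were counted for both and their values are equal by construction. The first base at which the copies part is base 19, shown in capitals in the 21 nt read of each copy. For miR-27 the list stops at base 18. Its later bases are the most frequent ones among the reads, and the naming of C as miR-27a and U as miR-27b was made here.
miR-23a: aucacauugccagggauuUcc
miR-23b: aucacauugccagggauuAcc
miR-27a: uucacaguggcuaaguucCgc
miR-27b: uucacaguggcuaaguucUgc

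The dry period library held 14851375 and the peak lactation library 15712891 clean reads, so that 3 reads, taken as the smallest amount the depth could show, equalled 0.202 and 0.191 reads per 1000000 clean reads (RPM). Reads of conserved miRNAs, 9081514 and 2266176 as counted here, made up 61.1% of the dry period and 14.4% of the peak lactation library. The study reports fewer reads matched to miRNA precursors in the dry period and far more at peak lactation. Its totals therefore differ less between the stages, and scaling to them was not tried. Among the 257 conserved miRNAs with at least 1 RPM in a library, the median log2 ratio of RPM, peak lactation over dry period, was -1.44, and the quartiles were -2.15 and -0.92. Intervals in brackets are 95% intervals that cover counting error only. Sets of miRNAs that mark other cells of the gland also differed between the libraries, and their part in the results below was not tested. The 2 endothelial markers summed to 128.9 and 81.4 RPM (log2 ratio -0.66), the 4 stromal markers to 10204 and 1330 RPM (-2.94), and the 6 epithelial markers to 2687 and 1342 RPM (-1.001). The 2 smooth muscle markers summed to 11846 and 5199 RPM (-1.19) and the 3 red blood cell markers to 109.9 and 189.5 RPM (0.79), with none of the markers at 0. Single markers differed within a set. Their log2 ratios ran from -0.74 to -0.21 (endothelial), from -2.96 to -2.25 (stromal) and from -1.99 to -0.09 (epithelial). For smooth muscle they ran from -2.76 to -0.86, and for red blood cells from 0.15 to 1.07.

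All members were detected in both libraries, and the 3p strands lay at 337 RPM or above while the 5p strands were rare. Together the 8 members had 70017 dry period and 32035 peak lactation reads, or 4715 and 2039 RPM. The log2 ratio of this sum was -1.21 (-1.23 to -1.19), which is 0.23 above the median of the conserved miRNAs. The sum was lower at peak lactation in RPM, and it was higher under each of the other scalings, at 0.87 per conserved miRNA read, 0.09 with TMM factors and 0.19 with DESeq2 size factors. The value per conserved miRNA read, and its sign, depend on the totals counted here rather than those of the study. The members took 0.771% of the conserved miRNA reads of the dry stage and 1.41% of those at peak lactation. Of the 257 conserved miRNAs, 153 had a lower log2 ratio than this sum. Fewer cells of a type that makes these miRNAs and less of them per cell cannot be told apart in pooled tissue.

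Of the 8 members, 6 reached 1 RPM in a library, and all 6 were lower at peak lactation by more than 1 on the log2 scale when counted in RPM. Among all conserved miRNAs tested, 70.4% were lower by that margin, and 1.17% were higher by it, a direction in which no member moved that far. Because miR-27a-3p and miR-27b shared their reads, the 6 stand for 5 separate counts. Scaled to conserved miRNA reads as counted here, 5 of the 6 lay above 0, and 1 of them, miR-24-3p, was past the margin at 1.07. With TMM factors 2 of the 6 lay above 0 and with DESeq2 size factors 4 did. The order of the members did not depend on the scaling, since each scaling shifts all of them by the same amount.

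**Figure D1:**
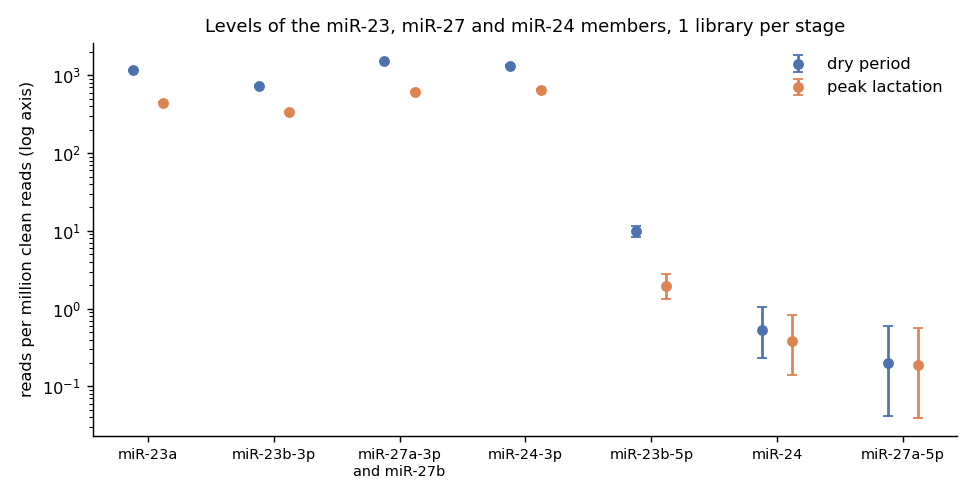
Levels of the 8 listed members in reads per 1000000 clean reads on a log axis, for the dry period (blue) and peak lactation (orange) library, with 95% counting intervals, and with miR-27a-3p and miR-27b as 1 entry because they share their reads. The 3p strands lie between 337.05 and 1529.6 RPM, miR-23b-5p lies at 9.90 and 1.97 RPM, and the intervals of miR-24 and miR-27a-5p overlap between the libraries.

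miR-27 was the most abundant of the seeds among single list entries, followed by miR-24-3p, miR-23a and miR-23b-3p in the dry period library. This order compares unlike entries, since each miR-27 entry holds the reads of both copies while miR-23 has an entry for each copy. miR-27 had 22717 reads in the dry stage and 9647 at peak lactation, or 1530 and 614 RPM. Its log2 ratio was -1.32 (-1.35 to -1.28). The order at the top changed between the libraries, because miR-24-3p stood above miR-27 at peak lactation. Within each library the counting intervals of these levels did not overlap.

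miR-24-3p, which both clusters can produce with the same sequence, had 19666 and 10287 reads, or 1324 and 655 RPM. Its log2 ratio of -1.02 (-1.05 to -0.98) was the smallest in size among the 6 tested members, and the interval spans the margin of -1. Of the 257 conserved miRNAs, 175 had a lower ratio. Ranked by reads among the listed miRNAs, it went from place 35 to place 30, while miR-27 went from places 30 and 31 to 32 and 33.

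miR-23a had 17190 dry period and 6910 peak lactation reads, or 1158 and 440 RPM, with a log2 ratio of -1.40 (-1.44 to -1.36). It held place 38 in both libraries and lay 0.04 above the median of the conserved miRNAs. miR-23b-3p had 10823 and 5296 reads, or 729 and 337 RPM, with a log2 ratio of -1.11 (-1.16 to -1.07), 0.33 above the median. The intervals of the copies did not overlap, with miR-23b-3p the less reduced. As a seed family, miR-23 had 27476 and 12061 reads and a log2 ratio of -1.27 (-1.30 to -1.24), so it was the largest of the seed families in both libraries.

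The 5p strands, which are mostly degraded once the hairpin is cut, formed a small remainder with 158 dry period and 40 peak lactation reads. miR-23b-5p had 147 and 31 reads, or 9.90 and 1.97 RPM, and its log2 ratio of -2.33 (-2.88 to -1.77) lay 0.89 below the median of the conserved miRNAs. Among the 6 tested members it was the most reduced. miR-24 (the 5p strand) had 8 and 6 reads, and miR-27a-5p had 3 and 3. Neither reached 1 RPM, and a difference between the libraries was not detectable at this depth, the intervals of the log2 ratio running from -1.96 to 0.97 and from -2.20 to 2.03. With 1 mismatch allowed, miR-24 had 62 and 22 reads and a log2 ratio of -1.58 (-2.27 to -0.88). Most of these, 53 and 16 reads, came from tags that leave the listed sequence after base 16 and may not be this strand.

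**Figure D2:**
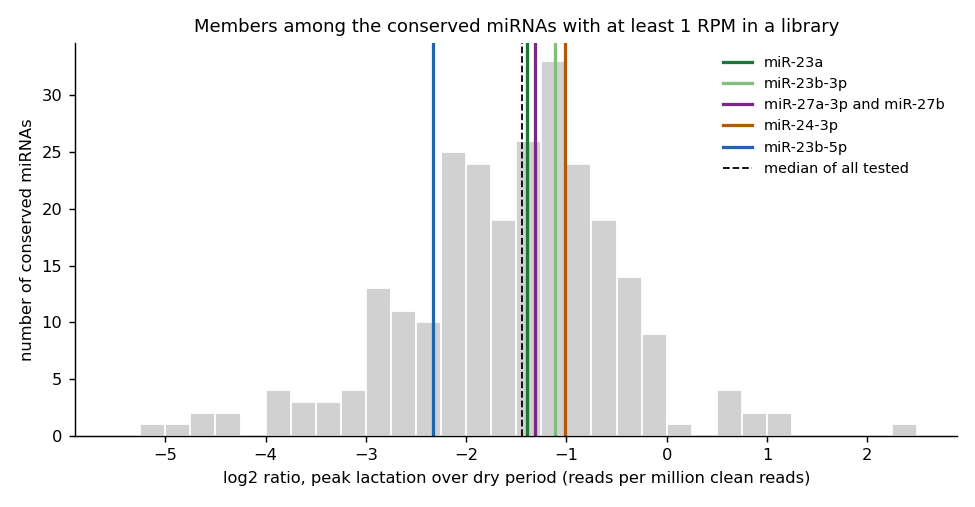
Histogram of the log2 ratio of reads per 1000000 clean reads, peak lactation over dry period, for the 257 conserved miRNAs with at least 1 RPM in a library, with the tested members as coloured lines and the median of all 257 as a dashed line at -1.44. The 3p strands lie from -1.40 to -1.02, close above the median, and miR-23b-5p lies at -2.33.

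The conserved miRNAs whose change was nearest to that of the member sum, among those with at least 1000 reads in each library, were miR-26b, miR-140 and miR-205. miR-26b had 37501 and 17458 reads, with a log2 ratio of -1.18. miR-140 had 81819 and 38123 reads, also with -1.18. miR-205, a miRNA of epithelial cells and a member of the epithelial marker set, had 3119 and 1392 reads and a ratio of -1.25. With 2 libraries this likeness is a match of a single ratio.

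The copies of the a and b cluster were then told apart by base 19, which needs no scaling between the libraries because both copies were read in the same library. The b copy made up a larger share of the reads at peak lactation in both families, by a few percentage points. With each distinct tag counted once instead, the log2 odds ratio was 0.016 (-0.63 to 0.66) for miR-23 and 0.49 (-0.22 to 1.21) for miR-27, and both intervals span 0. That setting counts how many different sequences each copy has, not its reads, so it cannot decide whether the share of reads differed. Of the miR-23 reads that carried an A or a U there, miR-23b (A) made up 38.2% (exact binomial interval 37.6 to 38.8) in the dry period and 43.2% (42.3 to 44.1) at peak lactation. The underlying counts were 10286 reads of miR-23b beside 16653 of miR-23a in the dry period, and 5151 beside 6765 at peak lactation. The log2 ratio of the odds of miR-23b, peak lactation over dry period, was 0.30 (0.24 to 0.37). With all of bases 19 to 21 required to match, the share was 42.7% and 46.2%, and the log2 odds ratio was 0.20 (0.13 to 0.28).

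In RPM, miR-23a by base 19 stood at 1121 and 431 RPM (log2 ratio -1.38) and miR-23b at 692.6 and 328 RPM (-1.08), and a common scaling factor moves both by the same amount. Few miR-23 reads were left without a copy. Those that ended at base 18 were 445 of the 27476 in the dry period (1.62%) and 117 of the 12061 at peak lactation (0.970%), and they were counted for both list entries above. Another 92 and 28 reads carried a C or a G at base 19. A 19 nt read cannot be told apart from an 18 nt read of the other copy with an added U or A. Reads of 19 nt numbered 2597 for miR-23a and 1025 for miR-23b in the dry period, and 704 and 353 at peak lactation. Over reads of 21 nt or longer the share of miR-23b was 41.9% and 45.8%, with a log2 odds ratio of 0.23 (0.16 to 0.30).

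For miR-27 the split left out far more reads, since 10305 of 22717 reads in the dry period (45.4%) and 4423 of 9647 at peak lactation (45.8%) ended at base 18. Of the reads that carried a C or a U at base 19, miR-27b (U) made up 61.8% (60.9 to 62.7) and 64.7% (63.4 to 66.0), from 7595 reads beside 4696 of miR-27a and from 3340 beside 1819. The log2 odds ratio was 0.18 (0.09 to 0.28). It was 0.40 (0.19 to 0.61) with bases 19 to 21 matched, from shares of 74.6% and 79.5%, and 0.45 (0.28 to 0.62) over reads of 21 nt or longer. A read of 19 nt that ends in U cannot be told apart from an 18 nt read with an added U, and such reads made up most of the dry period reads given to miR-27b.

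By base 19, miR-27a stood at 316.2 and 116 RPM with a log2 ratio of -1.45 (-1.53 to -1.37), and miR-27b at 511.4 and 213 RPM with a ratio of -1.27 (-1.33 to -1.21). miR-23a had more reads than miR-23b in both libraries. For miR-27 the order of the copies depended on which read lengths were counted. Without the 19 nt reads, a choice made after seeing the data, miR-27a had 4236 and miR-27b 3093 reads in the dry stage, and 1656 and 1729 at peak lactation. The share of miR-27b was then 42.2% (41.1 to 43.3) and 51.1% (49.4 to 52.8) and its log2 odds ratio 0.52 (0.40 to 0.63). Over reads of 21 nt or longer, which also leaves out the 20 nt reads that were mostly miR-27a, the share of miR-27b was 66.7% and 73.3%. With the reads that end at base 18 given to neither copy, which copy of miR-27 was the more frequent cannot be told.

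The share of a copy varied strongly with read length. miR-23b took 28.3% and 33.4% of miR-23 reads of 19 nt, 34.5% and 37.0% of those of 22 nt, and 92.3% and 94.7% of those of 24 nt. At each of the 7 lengths from 19 to 25 nt its share was higher at peak lactation, and at 23 and 25 nt the interval of the log2 odds ratio spanned 0. miR-27b took 90.7% and 90.8% of the miR-27 reads of 19 nt but 11.9% and 16.4% of those of 20 nt. At 21 nt its share was 65.4% and 68.6%, at 22 nt 77.5% and 83.1%, and at 23 nt 62.3% and 75.1%. Its share was likewise higher at peak lactation at each of the 5 lengths from 19 to 23 nt, with the interval spanning 0 at 19 and 21 nt.

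**Figure D3:**
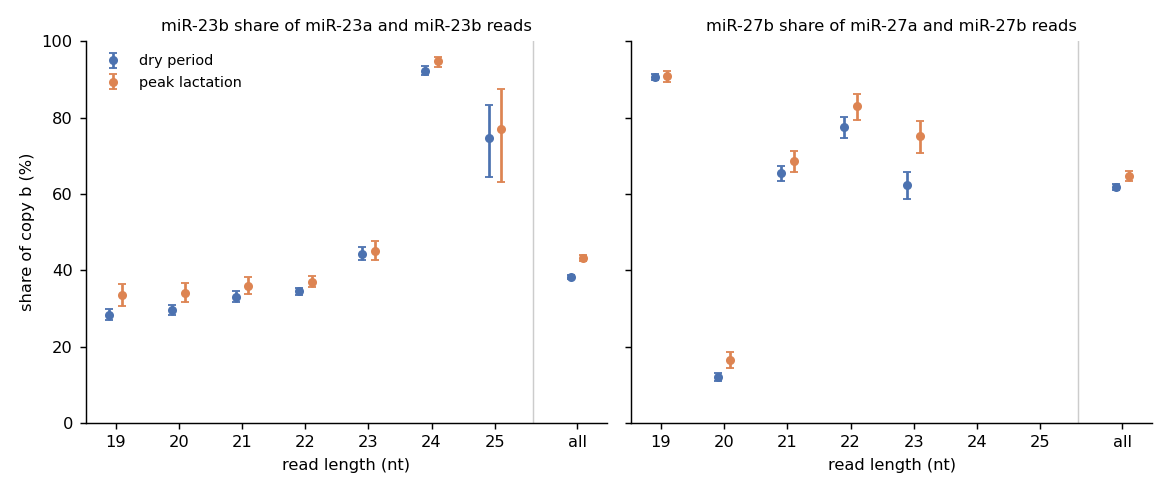
Share of the b copy in percent among miR-23 reads (left) and miR-27 reads (right) that were given to a copy by base 19, by read length in nt and over all lengths, for the dry period (blue) and peak lactation (orange) library with exact 95% binomial intervals. Over all lengths the share goes from 38.2% to 43.2% for miR-23b and from 61.8% to 64.7% for miR-27b, and it depends more on read length than on the stage.

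Other pairs of a and b copies also moved apart between the same libraries, some by more and some by less. There were 14 other listed pairs with at least 100 reads for each copy in each library, of which 12 shared under 1% of their reads, a restriction chosen after seeing the data. Among these 12, the log2 ratio of b minus that of a differed from 0 by a median of 0.39, positive in 6 and negative in 6. By base 19, the size of the change was larger than that of miR-23 in 7 of the 12 pairs and larger than that of miR-27 in 10. The count for miR-27 depends on the reads used. With bases 19 to 21 matched its log2 odds ratio was 0.40, and over reads of 21 nt or longer 0.45, both above the median of 0.39, so fewer pairs exceed it there. The change was smallest for miR-374a and miR-374b, at -0.0033, and largest for miR-181a and miR-181b, at -1.82.

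**Figure D4:**
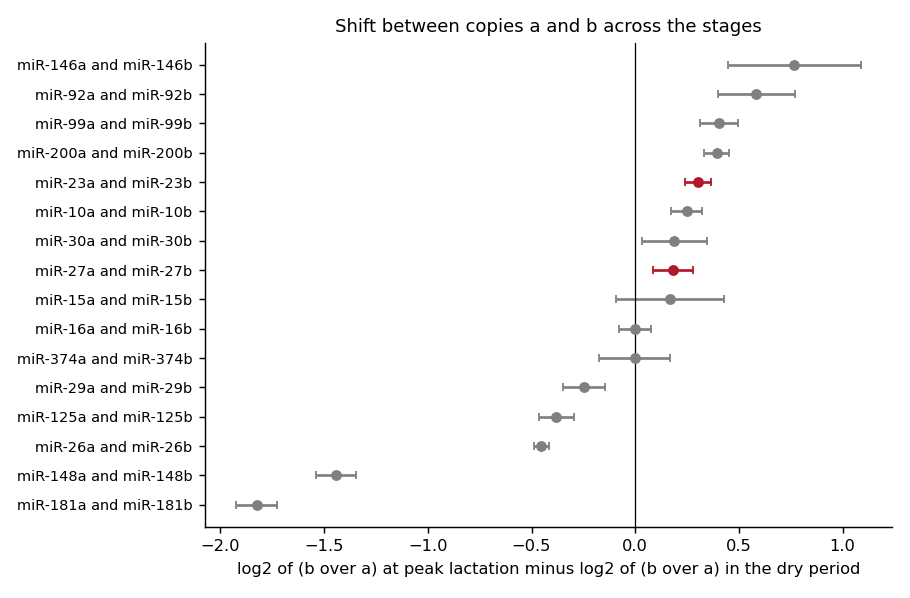
Change of the ratio of copy b to copy a between the stages, as log2 of b over a at peak lactation minus that in the dry period, for the miR-23 and miR-27 pairs by base 19 (red) and 14 other listed pairs (grey), with 95% counting intervals. miR-23 lies at 0.30 and miR-27 at 0.18, within the range of the other pairs from -1.82 to 0.77, of which miR-16a and miR-16b, and miR-146a and miR-146b, share reads.

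The ends of the reads set the copies apart, as the most frequent reads show, with capitals from base 19 on.
miR-23a, 22 nt: aucacauugccagggauuUCCA
miR-23a, 19 nt: aucacauugccagggauuU
miR-23b, 22 nt: aucacauugccagggauuACCA
miR-23b, 24 nt: aucacauugccagggauuACCACU
miR-27a, 20 nt: uucacaguggcuaaguucCG
miR-27b, 19 nt: uucacaguggcuaaguucU
miR-27b, 21 nt: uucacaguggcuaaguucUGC
The 22 nt read was the most frequent for each miR-23 copy. For miR-23a it had 6353 and 2908 reads, 38.1% and 42.99% of the copy, and the 19 nt read had 2597 and 704, or 15.6% and 10.4%. For miR-23b the 22 nt read had 3355 and 1721 reads, 32.6% and 33.4%. The 24 nt read of miR-23b, 2 bases longer, went from 1536 to 1016 reads and from 14.9% to 19.7% of the copy.

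Both miR-23 copies had a smaller share of short reads at peak lactation. Reads of 20 nt or less made up 33.1% of miR-23a in the dry period (5513 of 16653) and 24.98% at peak lactation (1690 of 6765), a log2 odds ratio of -0.57 (-0.66 to -0.48). For miR-23b they made up 21.9% and 16.8%, a log2 odds ratio of -0.48 (-0.60 to -0.35). The mean read length of miR-23a was 21.1 nt in the dry period and 21.4 nt at peak lactation, and that of miR-23b was 21.8 and 22.1 nt. Among 72 other conserved miRNAs with at least 1000 reads in each library, the median log2 odds ratio of reads of 20 nt or less was -0.06, with quartiles of -0.21 and 0.29. Over the list entries, 3 of the 72 had a lower value than miR-23a and 4 had a lower value than miR-23b-3p.

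miR-27 reads were short in both libraries. The frequent 20 nt read of miR-27a had 2859 and 1091 reads, 60.9% and 59.98% of that copy. The 19 nt read given to miR-27b had 4502 and 1611 reads, 59.3% and 48.2% of that copy, a log2 odds ratio of -0.64 (-0.76 to -0.53). The 21 nt read of miR-27b had 1379 and 683, or 18.2% and 20.4%. The most frequent miR-27 read of all was the listed sequence of 18 bases itself, with 10305 reads (694 RPM) and 4423 reads (281 RPM), and its share of the miR-27 reads differed by a log2 odds ratio of 0.03 (-0.04 to 0.10) between the libraries.

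None of the 72 other conserved miRNAs had as large a share of 18 nt reads as miR-27. The next was miR-148b, at 30.9% and 27.7% in the order dry period, peak lactation, and the medians were 0.243% and 0.255%. Reads under 18 nt had been removed by the authors, so any shorter miR-27 reads were not analysed here. Of the listed sequences, 11 are of 18 bases.

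miR-24-3p mostly ran past its listed end. Its most frequent reads follow, with capitals for bases past the listed 22.
miR-24-3p, 23 nt: uggcucaguucagcaggaacagU
miR-24-3p, 22 nt: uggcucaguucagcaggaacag
miR-24-3p, 24 nt: uggcucaguucagcaggaacagUU
The 23 nt read was found 8636 and 4440 times, 43.9% and 43.2% of miR-24-3p. The listed 22 nt sequence itself had 3902 and 1885 reads, 19.8% and 18.3%. The 24 nt read had 2190 and 1281, 11.1% and 12.5%. Reads that went on past the listed end made up 62.7% and 63.7% in all. Short reads, of 21 nt or less, made up 10.2% and 10.3%, with a log2 odds ratio of 0.02 (-0.10 to 0.13), so the shift in length seen for miR-23 was not detectable for miR-24-3p.

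**Figure D5:**
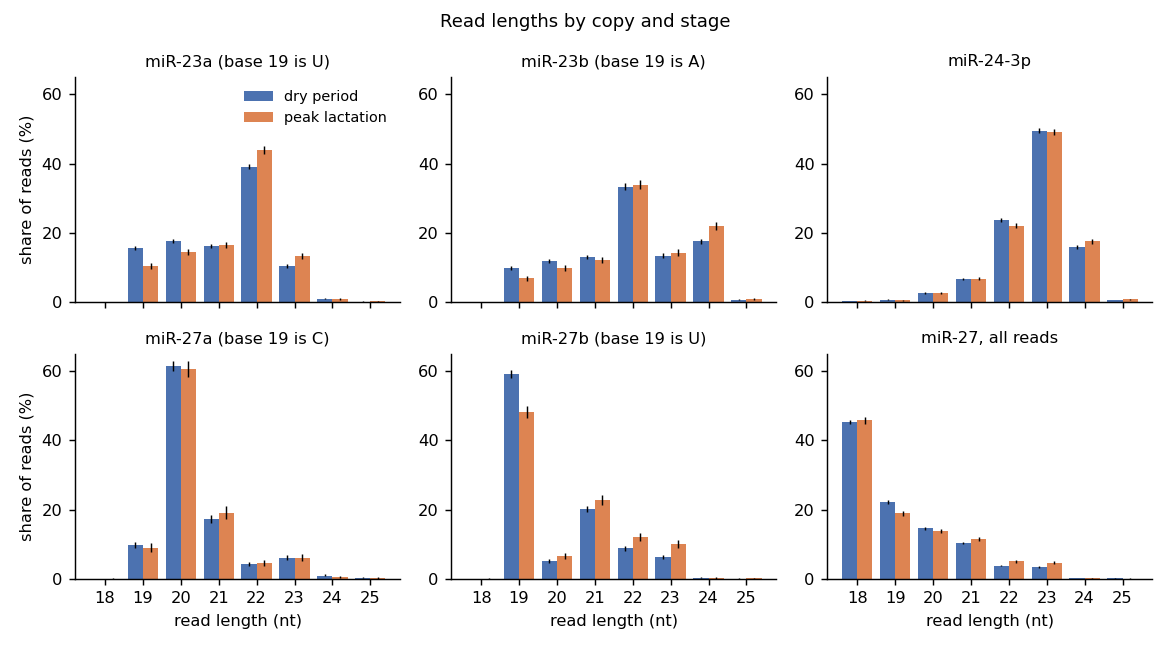
Share of reads in percent by read length in nt for miR-23a, miR-23b, miR-24-3p, miR-27a, miR-27b and all miR-27 reads, in the dry period (blue) and peak lactation (orange) library, with exact 95% binomial intervals. miR-23a and miR-23b peak at 22 nt, miR-24-3p at 23 nt, miR-27a at 20 nt and miR-27b at 19 nt, and 45.4% and 45.8% of all miR-27 reads are of 18 nt.

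Reads of miR-23a could also be compared with a hairpin sequence that the study gives for it. They were identical to it in 83.6% of the dry period and 84.2% of the peak lactation reads. A tail of A only, which the hairpin does not hold, was found on 6.20% (5.84 to 6.57) and 4.51% (4.03 to 5.03), and a tail of U only on 8.59% and 9.36%. Additions of this kind are made by nucleotidyl transferases after the hairpin is cut.

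The 5′ ends, which set the seed, were uniform. miR-23 reads began at the listed base 1 in 97.7% of the dry period and 97.4% of the peak lactation reads. For miR-27 this was 98.96% and 99.1%, and for miR-24-3p 98.5% and 98.4%.

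The 5p strand of the miR-23b hairpin was an exception in its start and in its share. The most frequent 5p read began 1 base before the listed one, and both are shown with the bases of the listed seed in capitals.
miR-23b-5p, 1 base earlier: ugGGUUCCUggcaugcugauuu
miR-23b-5p, listed: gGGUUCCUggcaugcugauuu
The earlier start was carried by 253 of 403 reads in the dry period (62.8%) and by 67 of 99 at peak lactation (67.7%). With any start counted, miR-23b-5p had 27.1 and 6.30 RPM, and the log2 ratio was -2.11 (-2.42 to -1.79).

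As a share of the 5p and 3p reads of its hairpin, miR-23b-5p made up 1.41% (1.19 to 1.65) in the dry period and 0.598% (0.407 to 0.848) at peak lactation. This corresponded to 70.0 and 166 reads of miR-23b-3p for each read of miR-23b-5p. The log2 odds ratio of the 5p strand was -1.25 (-1.81 to -0.69), and it was -1.02 (-1.34 to -0.70) with any start counted, from shares of 3.73% and 1.87%. The other listed 5p strands, at 3 to 8 reads, made up 0.0407% and 0.0583% for miR-24 (set against all miR-24-3p reads, whichever hairpin they came from) and 0.0638% and 0.165% for miR-27a, set against the 3p reads given to miR-27a by base 19 and so without those that end at base 18. Over reads identical to the 5p sequence and to the 21 nt read of miR-27a, its 3 and 3 reads made up 0.699% and 1.65%. For miR-23a, 1 read of the 5p strand was found in each library.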

How the data were processed

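Small RNA under 30 nt from mammary gland was sequenced in 2 libraries, 1 per stage, with the RNA of 3 goats pooled for each. Before deposit the authors cleaned the reads of adaptor artefacts and poor-quality sequence and kept lengths of 18 nt and up. They deposited each distinct tag with its raw count of clean reads, not normalized and not aligned. The submitters' processing notes name CASAVA. No genome was used here.

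A tag was counted for the listed conserved miRNA that it matched for the longest stretch from the 5′ end, without mismatch and over at least 18 nt. A tag matching several equally well was counted for each, which holds for miR-27a-3p and miR-27b. Sequences were taken from the study's lists of conserved miRNAs, and the copies of miR-23 and miR-27 were separated by base 19 of the deposited tags. For miR-27 that base is not in the list, and a C was named miR-27a and a U miR-27b here. Counts were divided by clean reads and multiplied by 1000000, and log2 ratios are peak lactation over dry period. miRNAs under 1 RPM in both libraries were not tested against the margin of 1. Wilson intervals of how reads divide between the libraries gave the intervals of log2 ratios, and those of shares are exact (Clopper-Pearson). PCR copies are not independent molecules, so intervals and the floor of 3 reads cover counting error only. With 1 library per stage no p-value is given. The precision of single members follows from 3 to 22717 reads.

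The members and lists were chosen with earlier results of these data known. Named were the 8 members, the 4 copies, up to 3 most frequent tags per copy, the 3 nearest other miRNAs with at least 1000 reads in each library, and the most and least changed of the other pairs. Cell type marker sets were miR-126 and miR-126* (endothelial), miR-143 and miR-145 (smooth muscle), miR-199a-3p, miR-199a-5p, miR-199b and miR-214 (stroma), miR-200a, miR-200b, miR-200c, miR-141, miR-429 and miR-205 (epithelium), and miR-451, miR-144 and miR-486 (red blood cells). Python 3.11.15 with numpy 2.4.6, scipy 1.17.1 and matplotlib 3.10.9 was used. TMM factors came from edgeR 4.0.16 and size factors from DESeq2 1.42.0 in R 4.3.3. The scripts were tested on simulated data.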

Additional observations from a re-analysis of the deposited data

Results flagged for a closer look

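Reads outside the member counts were found for the miR-24 and the miR-23b hairpins. Tags that shared the first 16 bases of the listed miR-24 and then went on with AAC had 53 dry period and 16 peak lactation reads. This was 3.57 and 1.02 RPM, a log2 ratio of -1.81 (-2.61 to -1.01). They outnumbered the 8 and 6 reads of the listed sequence. The most frequent of them, with 15 and 7 reads, is shown with the diverging bases in capitals.
miR-24, diverging: gugccuacugagcugaAACAC
Mammals carry a pair of miR-24 hairpins with the same 3p strand, and which hairpin gave these reads was not tested.

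miR-23b-5p reads that began 1 base before the listed start, which the count from the listed 5′ end leaves out, numbered 253 in the dry stage and 67 at peak lactation. These were more than the 148 and 31 reads that began at the listed base.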

How the results depend on the processing

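Against a log2 ratio of -1.21 in RPM, the sum of the 8 members gave 0.87 with reads of conserved miRNAs, as counted here, as the denominator, 0.090 with TMM factors, and 0.19 with DESeq2 size factors. With a matched stretch of 20 nt it gave -1.08, a sum that holds no miR-27 read because the miR-27 sequences are listed with 18 bases. Without miR-27 and with 18 nt matched, a setting chosen after seeing the data, it was -1.16. The members lower by more than 1 on the log2 scale were 6 in RPM, 0 per conserved read, 1 with TMM factors (miR-23b-5p) and 0 with DESeq2 size factors. They were 4 with a stretch of 20 nt, where neither miR-27 entry has reads. With 1 mismatch allowed they were 7, where miR-24 joined them at -1.58 (62 and 22 reads). Of these miR-24 reads, 53 and 16 came from tags that leave the listed sequence after base 16. The change between scalings comes from the scaling itself, which adds 2.08, 1.30 and 1.40 to every log2 ratio. It takes the median of the conserved miRNAs to 0.64, -0.14 and -0.04. Per conserved read, miR-23a was at 0.69, miR-23b-3p at 0.97, miR-24-3p at 1.07 and miR-27a-3p and miR-27b at 0.77. With TMM factors miR-23b-3p was at 0.19 and miR-24-3p at 0.28, and with DESeq2 size factors they were at 0.28 and 0.38, and miR-27a-3p and miR-27b at 0.079. Of 52 alternative log2 ratios of the 6 members with at least 1 RPM, these 11 changed sign and 41 did not. Of the 18 for miR-24 and miR-27a-5p, whose intervals span 0, 6 changed sign, all under the other scalings.

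The log2 odds ratio of the b copy, 0.30 for miR-23 and 0.18 for miR-27 by base 19, was 0.20 and 0.40 with bases 19 to 21 matched, 0.23 and 0.45 over reads of 21 nt or longer, 0.26 and 0.52 over reads of 20 nt or longer (a setting chosen after seeing the data), and 0.016 (-0.63 to 0.66) and 0.49 (-0.22 to 1.21) with each distinct tag counted once. The cause of these differences was not tested. The 5p share of miR-23b kept its direction under the alternatives tried. For the shares of short miR-23a, miR-23b and miR-27b reads the only alternative left out tags with 1 read. It kept 16612 of 16653 dry period miR-23a reads, so it could hardly change these shares. With 1 library per stage no library could be left out. No paired analysis was possible because each stage has 1 library. Depth limits miR-24 and miR-27a-5p, at 3 to 8 reads per library.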

Other observations

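Further tags left a member's sequence within the matched stretch and were not counted for it. For each member only the most frequent continuation is given, and tags that went on otherwise are not included. Tags that shared 17 bases with miR-24-3p and went on with CAC had 106 dry period and 43 peak lactation reads. This was 7.14 and 2.74 RPM, a log2 ratio of -1.38 (-1.89 to -0.87). The most frequent is shown with the bases after the shared stretch in capitals.
miR-24-3p, diverging: uggcucaguucagcaggCACAGU
For miR-23, tags that shared 15 bases and went on with CUU had 40 and 7 reads, a log2 ratio of -2.60 (-3.73 to -1.47). For miR-27, tags that shared 17 bases and went on with UCG had 18 and 4 reads. Each of these 3 groups was under 1% of the reads of its seed family in both libraries.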
